A study of Mus musculus with 10 samples.

Results

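The DEAD and DEAH box RNA helicases were taken as all genes whose symbol in the array annotation begins with Ddx or Dhx and a number, leaving out Ddx4 and Ddx6. These were 49 genes, 33 of them Ddx and 16 Dhx, of the 18193 genes for which the array had a probe set assigned to one gene alone. Each gene was represented by whichever of its probe sets was brightest on average across the 10 arrays. DEAD and DEAH box helicases are ATPases that open short RNA duplexes or strip proteins from RNA. They take part in nearly every step in the life of an RNA, from ribosome assembly and splicing to nuclear export, translation and decay. The fully grown oocyte is transcriptionally silent and lives on stored maternal transcripts, so helicase transcripts in the MII oocyte are part of this store.

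The study asked whether maternal transcripts of the mouse oocyte are concentrated at the meiotic spindle. The oocytes came from female B6D2F1 mice given equine chorionic gonadotropin (eCG) and, 48 h later, 5 IU of human chorionic gonadotropin (hCG). They had matured in vivo to metaphase of the second meiotic division (MII), were collected 16 h after hCG and were freed of cumulus cells with hyaluronidase. The spindle-chromosome complex (SCC), removed by microsurgery, was measured on 3 arrays. The cytoplast, which is the enucleated oocyte left behind, was measured on 4 arrays and the intact MII oocyte on 3 arrays. All 3 groups share the strain, the hormones and the enzyme treatment, and none carries an allele or an added agent. The titles number the SCC arrays 1 to 3, the cytoplast arrays 1 to 4 and the MII oocyte arrays 2 to 4. They call them biological replicates without naming animals, pools or the number of oocytes in a sample, and the spread that enters a p-value is that between these samples, which may be partly technical.

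The median intensity of the arrays lay between 15.6 and 16.6 on the linear scale. Their bright ends were less even. The 95th percentile of intensity ran from 623 to 797 in the SCC and from 526 to 634 in the cytoplast. In the MII oocyte it ran from 568 to 711. The background level of an array, set at the 95th percentile of genes of other tissues, lay between 97.2 and 192. Of these 43 genes, Cpa1 (mean 4249) and Ms4a1 (mean 1014) stood above it on all 10 arrays. By its definition 3 of the 43 lay above it on each array, so a few genes set the level. Of 14 oocyte marker genes with a probe set, 10 stood above this level on all 10 arrays, and Khdc3 and Figla on none. Of 17 cumulus cell markers, 16 were above it on no array, and Kitl on 4 arrays. The median intensity of the cumulus markers was 14.9 to 19.9 in the SCC, 14.8 to 17.3 in the cytoplast and 15.1 to 17.9 in the MII oocyte. Each array received the same mass of cRNA after 2 rounds of amplification, so a value is a relative level within its sample. Fewer cells in a sample and less RNA per cell cannot be told apart, nor can more of one transcript and less of the others.

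Of the 49 helicase genes, 38 had a representing probe set that passed the filter on dim signals (above the median signal of 3 or more arrays) and were tested. These were 25 Ddx and 13 Dhx genes. Ddx20, Ddx24, Ddx25, Ddx27, Ddx41, Ddx42, Ddx43, Ddx60, Dhx8, Dhx35 and Dhx58 did not pass, with intensities between 5.81 and 18.8 over all arrays. Above the background level on all 10 arrays stood 12 genes: Ddx3x, Ddx5, Ddx17, Ddx18, Ddx39a, Ddx46, Ddx54, Ddx59, Dhx15, Dhx30, Dhx32 and Dhx36. Another 4 were above it on some arrays (Ddx47 and Dhx40 on 8, Ddx10 on 5 and Dhx57 on 2). The other 33 were above it on none, which bounds their level and does not show that the transcript was missing. Thus 22 of the 38 tested genes were never above background, and their differences rest on dim signal. The same counts over all genes of the array are not given here. Whether helicase genes were detected more or less often than others therefore cannot be read from these counts.

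Between the SCC and the cytoplast, most helicase transcripts differed by less than the test could resolve. Ddx10 alone passed the threshold, with more signal in the SCC. By limma over all 23737 probe sets tested (Benjamini-Hochberg adjusted p under 0.05), 1 of the 38 helicase genes was higher and 0 were lower, which is 2.63% in either direction. Of all tested probe sets 6.74% were called higher, 0.274% lower and 7.01% in either direction. At an unadjusted p under 0.05, 4 helicase genes were higher (10.5%, against 16.3% of all probe sets) and 5 lower (13.2%, against 3.93%), together 23.7% against 20.2%. Those 5 were Dhx29, Dhx16, Ddx5, Dhx40 and Ddx54. Limma with an intensity trend called Ddx10 and no other helicase gene, where it called 5.57% of all probe sets. The arrays of the groups did not overlap for 4 genes that were higher in the SCC (Ddx10, Ddx3x, Dhx9 and Ddx50), where 13.9% of all probe sets had this pattern. They did not overlap for 3 that were lower (Dhx29, Ddx5 and Ddx54), where 5.89% of all probe sets did.

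The median log2 difference of the 38 genes was 0.07 against 0.01 for all probe sets tested. With cyclic loess it was -0.03, against -0.0047 for all probe sets. With quantile normalization it was -0.07, against -0.025. As deposited, 21 of the 38 lay above 0 (55.3%, against 52.4% of all probe sets). With cyclic loess 16 did, and with quantile normalization 14. The share of all probe sets above 0 with these scalings is not given here. The 11 genes with a mean log2 intensity above 8 had a median of 0.16, where all 3944 probe sets of that brightness had a median of 0.28. After cyclic loess these medians were -0.06 and 0.02. The differences of single genes ran from -0.58 (Dhx40) to 1.10 (Ddx10). For 33 of the 38 the 95% interval of the difference lay within 1 log2 unit on either side of 0, which is within 2-fold either way (86.8%, against 88.4% of all probe sets tested).

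**Figure D1:**
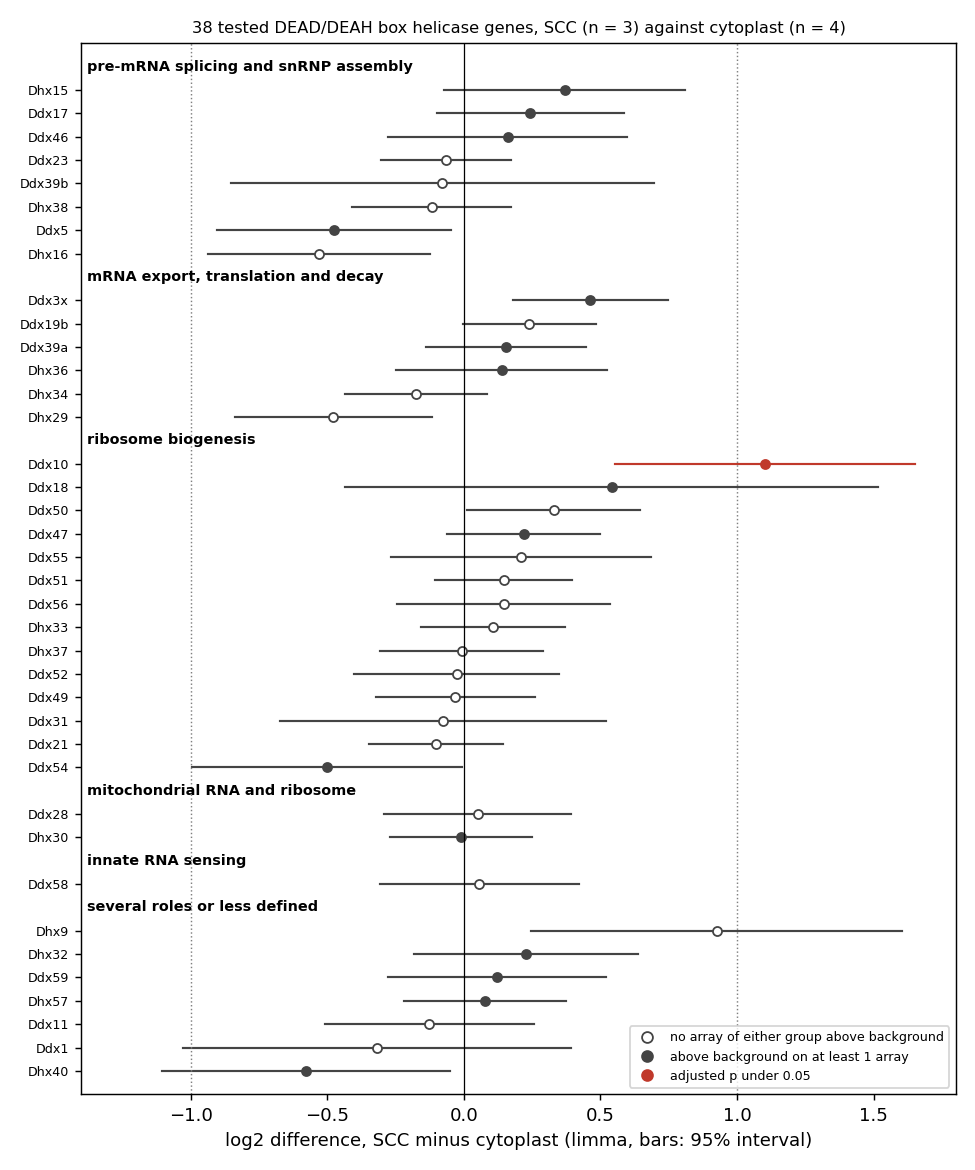
Log2 difference of the SCC minus the cytoplast for the 38 tested helicase genes, grouped by role and ordered by size within each role; bars are 95% intervals from limma, open points had no array of either group above background, and the dotted lines mark 2-fold. Ddx10 (1.10, red) passed the adjusted threshold, and for 33 of the 38 genes the interval lies between the dotted lines.

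**Figure D2:**
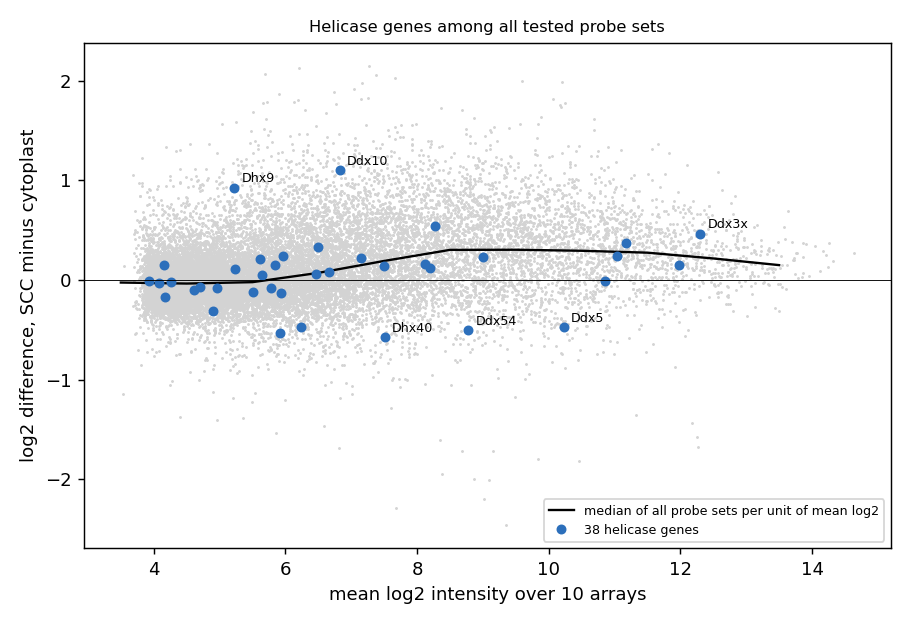
Log2 difference of the SCC minus the cytoplast (y axis) against the mean log2 intensity over 10 arrays (x axis) for all 23737 tested probe sets (grey) and the 38 helicase genes (blue), with the median of all probe sets per unit of intensity as a line. The line rises to about the median of 0.28 seen in bright probe sets, and the bright helicase genes lie on both sides of it.

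The ribosome biogenesis helicases, which act on pre-ribosomal RNA in the nucleolus, were the group with most members: 16 genes, of which 14 were tested. Their median log2 difference between SCC and cytoplast was 0.13, with 8 above 0, and 1 passed. Ddx10 is the counterpart of yeast Dbp4, which helps to free a small nucleolar RNA from the pre-rRNA of the small subunit. In the SCC its intensities were 161, 156 and 218. In the cytoplast they were 73.7, 87.7, 103 and 68.2. All 3 SCC arrays lay above all 4 cytoplast arrays, and no cytoplast array reached its background level. Group means were 178.3 ± 34.3 (SD, n = 3) and 83.2 ± 15.6 (SD, n = 4), a log2 difference of 1.10 (SE 0.25, limma adjusted p = 0.0248). Because the cytoplast was not above background, the fold is a bound, with the SCC at least 1.56-fold higher.

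The call for Ddx10 held in 13 of 21 alternative settings, with log2 differences between 0.56 and 1.21 and adjusted p from 0.00672 to 0.273. It was lost with cyclic loess (log2 difference 0.98, limma adjusted p = 0.0784), with quantile normalization (0.93, adjusted p = 0.0853) and with the beta-actin probe difference as a covariate (1.09, adjusted p = 0.273). It was also lost without SCC 2 (adjusted p = 0.0805), SCC 3 (0.137), cytoplast 1 (0.0788) or cytoplast 2 (0.0623), by limma in each case. A second Ddx10 probe set, above background on no array, had a mean of 56.7 in the SCC and 55.8 in the cytoplast, a log2 difference of 0.03 (limma adjusted p = 0.943). The mean of both missed the threshold (0.56, adjusted p = 0.0509). The gap between 3′ and 5′ beta-actin control probes, a measure of transcript ends retained through amplification, was 3.27 to 3.65 log2 units in the SCC and 3.66 to 5.29 in the cytoplast, and these ranges did not overlap. It was 3.33 to 4.42 in the MII oocyte. With this gap as a covariate the Ddx10 difference was 1.09 and the call was lost. Because the gap ran with the group in SCC and cytoplast, this fit can hardly tell them apart.

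The other tested ribosome biogenesis genes did not pass. Ddx50, a nucleolar paralog of Ddx21, had intensities of 94.7, 102 and 109 in the SCC and 84.2, 69.1, 87.1 and 85.2 in the cytoplast. The groups did not overlap, but no array was above background, and the log2 difference of 0.33 (SE 0.14) had a limma adjusted p of 0.226. Ddx54, the counterpart of yeast Dbp10 of the large subunit, had intensities of 307, 344 and 397 in the SCC and 518, 517, 417 and 526 in the cytoplast. Every SCC array was below every cytoplast array here, with a log2 difference of -0.50 (SE 0.23, limma adjusted p = 0.24). Ddx54 passed after quantile normalization (-0.80, adjusted p = 0.0478) and in a fit of SCC and cytoplast arrays alone (adjusted p = 0.0476). It also passed without MII oocyte 3 (adjusted p = 0.0345). In the other 18 of 21 alternatives it did not pass. Over all 21 its log2 difference ran from -0.80 to -0.24, with limma adjusted p up to 0.845.

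Ddx18, related to yeast Has1, was spread widely within each group. It read 315, 351 and 518 in the SCC, 246, 189, 188 and 565 in the cytoplast, and 313, 155 and 576 in the MII oocyte, a 3.71-fold range over the arrays. The highest value of each group was found on the array with the brightest hybridisation controls in that group. Its log2 difference of 0.54 (SE 0.45) between SCC and cytoplast had a limma adjusted p of 0.572. Ddx47, related to yeast Rrp3 of the small subunit, read 130, 156 and 175 in the SCC and 134, 145, 127 and 121 in the cytoplast, a log2 difference of 0.22 (limma adjusted p = 0.39). The other 9 tested genes of this group (Ddx21, Ddx31, Ddx49, Ddx51, Ddx52, Ddx55, Ddx56, Dhx33 and Dhx37) were above background on no array, with log2 differences between -0.10 and 0.21. Ddx24 and Ddx27, which act in large subunit assembly, were not tested.

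The helicases of mRNA export, translation and decay numbered 7, of which 6 were tested, with a median log2 difference of 0.15, 4 above 0 and none past the threshold. Ddx3x, an X-linked helicase that aids initiation on mRNAs with structured leaders, had intensities of 4972, 6481 and 7002 in the SCC and 4527, 4096, 4723 and 4352 in the cytoplast. All SCC arrays were above all cytoplast arrays, SCC 1 by the least. The ratio was 1.38-fold (log2 difference 0.46, SE 0.13), just short of the threshold with a limma adjusted p of 0.0548 (0.072 with an intensity trend). Over 21 alternatives the adjusted p ran from 0.0141 to 0.608 and 4 passed: without SCC 1 (0.0141), with the hybridisation control level as a covariate (0.0302) or its cut as a block (0.0385), and with only probe sets above the 75th percentile of the array kept (0.0485). Both other probe sets of Ddx3x had smaller log2 differences, 0.28 (limma adjusted p = 0.252) and 0.33 (adjusted p = 0.397). Ddx3y, its Y-linked paralog, was not analysed here.

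Dhx29 helps the small ribosomal subunit scan structured leaders. Its SCC intensities were 65.7, 53.3 and 64.4, and they were 96.6, 82.8, 90.7 and 71.1 in the cytoplast. The groups did not overlap, all arrays were below background, and the log2 difference of -0.48 (SE 0.17) had a limma adjusted p of 0.117. Ddx19b, the nuclear pore helicase that releases exported mRNA, read 70.7, 70.5 and 62.1 in the SCC and 58.0, 57.4, 51.5 and 62.7 in the cytoplast. These overlapped by one array, all below background, with a log2 difference of 0.24 (limma adjusted p = 0.258). Dhx36, which unwinds G-quadruplexes in RNA and DNA, read 150, 175 and 262 in the SCC and 161, 197, 185 and 151 in the cytoplast. The groups overlapped, and the log2 difference of 0.14 (limma adjusted p = 0.741) became -0.04 after cyclic loess, -0.10 after quantile normalization and -0.09 without SCC 3.

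A second probe set of Dhx36 gave another picture. It read 150, 192 and 244 in the SCC and 117, 121, 136 and 125 in the cytoplast, with no overlap. Its log2 difference was 0.62 (SE 0.15, limma adjusted p = 0.0328), while its remaining, dim probe set was at 0.20 (adjusted p = 0.528). Ddx39a, an mRNA export helicase, differed by 0.15 (limma adjusted p = 0.595), with an SCC mean of 4346 ± 310 (SD, n = 3) and a cytoplast mean of 3915 ± 416 (SD, n = 4). Dhx34, of nonsense-mediated decay, was below background on all arrays and differed by -0.17 (limma adjusted p = 0.47). Ddx25, the testis helicase that stores and exports mRNA in spermatids, was between 9.49 and 11.0 on all arrays and was not tested.

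**Figure D3:**
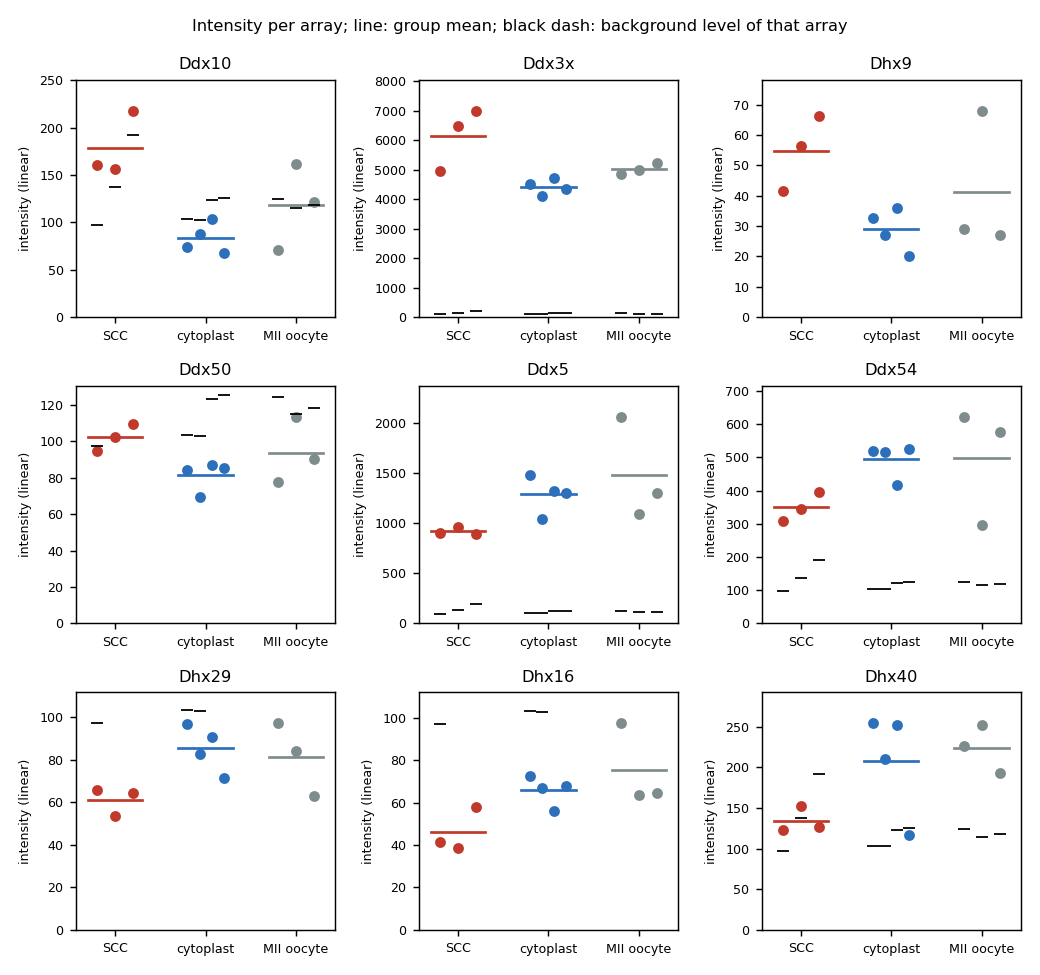
Linear intensity on each array (points), group mean (coloured line) and the background level of each array (black dash, drawn where it falls within the panel) for Ddx10, Ddx3x, Dhx9, Ddx50, Ddx5, Ddx54, Dhx29, Dhx16 and Dhx40 in 3 SCC, 4 cytoplast and 3 MII oocyte arrays. The SCC arrays lie above all cytoplast arrays for Ddx10, Ddx3x, Dhx9 and Ddx50 and below them for Ddx5, Ddx54 and Dhx29.

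The helicases of pre-mRNA splicing and of snRNP assembly numbered 13, of which 8 were tested, with a median log2 difference of -0.07, 3 above 0 and none past the threshold. Ddx5 and its paralog Ddx17 bind splicing factors and also act with transcription factors. Ddx5 read 907, 962 and 891 in the SCC and 1480, 1045, 1322 and 1305 in the cytoplast. Every SCC array was below every cytoplast array, by a log2 difference of -0.47 (SE 0.20, limma adjusted p = 0.191). The difference grew to -0.75 after cyclic loess (adjusted p = 0.0453) and -0.77 after quantile normalization (adjusted p = 0.0459), both past the threshold. Of 21 alternatives these 2 alone passed. Over all 21 the difference ran from -0.77 to -0.12, with limma adjusted p up to 0.703.

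The probe sets of Ddx5 went different ways. One probe set that was above background on all arrays read 473, 561 and 435 in the SCC and 672, 587, 770 and 554 in the cytoplast, a log2 difference of -0.40 (limma adjusted p = 0.3). Another read 624, 789 and 591 in the SCC and 602, 521, 555 and 521 in the cytoplast, a log2 difference of 0.27 (adjusted p = 0.419), and the remaining bright one was at 0.36 (adjusted p = 0.579). A dim one, above background on no array, passed the threshold at -0.37 (limma adjusted p = 0.0395), with means of 14.3 in the SCC and 18.5 in the cytoplast. The data therefore give no single direction for Ddx5.

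Ddx17 read 1949, 2435 and 2587 in the SCC and 2005, 1671, 1808 and 2377 in the cytoplast. The groups overlapped, and the log2 difference of 0.24 (limma adjusted p = 0.438) turned to -0.05 after cyclic loess and -0.08 after quantile normalization. Dhx15, the counterpart of yeast Prp43, which takes spent spliceosomes apart, read 2249, 3296 and 2390 in the SCC and 2136, 1819, 2754 and 1545 in the cytoplast. It overlapped too, with a log2 difference of 0.37 (limma adjusted p = 0.346), and its other probe set was at 0.52 (adjusted p = 0.221). Dhx16, the counterpart of yeast Prp2, which readies the spliceosome for its first step, read 41.5, 38.6 and 58.1 in the SCC and 72.5, 67.0, 55.9 and 67.6 in the cytoplast. One SCC array lay within the cytoplast range, all arrays were below background, and the log2 difference of -0.53 (SE 0.19) had a limma adjusted p of 0.121.

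Ddx39b, known as UAP56, serves both spliceosome assembly and mRNA export. It read 46.7, 50.8 and 65.7 in the SCC and 53.2, 38.5, 41.6 and 123 in the cytoplast, with cytoplast 4 far above the other values. Its log2 difference of -0.08 (limma adjusted p = 0.941) ran from -0.54 (with the beta-actin covariate) to 0.29 (without cytoplast 4) over 21 alternatives, none of which passed. Of the rest, Ddx46 (yeast Prp5, branch site recognition) differed by 0.16, Ddx23 (yeast Prp28, exchange of U1 for U6) by -0.07 and Dhx38 (yeast Prp16, the second step) by -0.12, with limma adjusted p of 0.733, 0.805 and 0.705. Ddx20 (Gemin3 of the SMN complex) was between 8.88 and 14.5 on all arrays and was not tested. Ddx41, Ddx42, Dhx8 and Dhx35, all spliceosome-associated, were not tested either.

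Of 8 helicases with several or less defined roles, 7 were tested, with a median log2 difference of 0.08, 4 above 0 and none past the threshold. Dhx9, also called RNA helicase A, acts in transcription and on double-stranded RNA. It read 41.5, 56.3 and 66.3 in the SCC and 32.8, 26.9, 36.0 and 20.2 in the cytoplast. The groups did not overlap and no array was above background. The log2 difference was 0.93 (SE 0.31, limma adjusted p = 0.106), and adjusted p ran from 0.0179 to 0.47 over 21 alternatives, 4 of which passed. Both other Dhx9 probe sets, dim as well, were at -0.12 and -0.13 (adjusted p = 0.635 and 0.622).

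Dhx40, a DEAH helicase of less defined role, read 122, 153 and 127 in the SCC and 254, 211, 252 and 116 in the cytoplast. Cytoplast 4 was the lowest array of both groups, and the other 3 cytoplast arrays were above all SCC arrays. The log2 difference of -0.58 (SE 0.24, limma adjusted p = 0.199) was -0.84 without cytoplast 4 (adjusted p = 0.0106). Within the arrays with brighter hybridisation controls, which for these groups are SCC 3 and cytoplast 4 alone, the difference was 0.13. It was -0.80 within the dimmer ones, which leave out that same cytoplast 4. Ddx1, a subunit of the tRNA ligase complex, was below background and overlapped between groups, at 18.1, 23.7 and 28.9 in the SCC and 29.0, 34.4, 41.8 and 16.4 in the cytoplast. Its log2 difference was -0.32 (SE 0.32, limma adjusted p = 0.669), and its other probe set was at 0.33 (adjusted p = 0.267).

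Ddx59, whose human gene is linked to a ciliopathy, read 258, 287 and 328 in the SCC and 284, 229, 232 and 332 in the cytoplast. The difference was 0.12 (limma adjusted p = 0.784) and turned to -0.10 after cyclic loess and -0.15 after quantile normalization. Dhx32 differed by 0.23 (limma adjusted p = 0.57), Dhx57 by 0.08 (adjusted p = 0.824) and Ddx11, a DNA helicase of sister chromatid cohesion, by -0.13 (adjusted p = 0.766). Ddx43, a helicase of germ cells, was not tested.

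Both mitochondrial helicases were tested. Dhx30, which acts in mitochondrial ribosome assembly, was nearly equal between groups, with an SCC mean of 1851 ± 179 (SD, n = 3) and a cytoplast mean of 1859 ± 67.6 (SD, n = 4). The log2 difference was -0.01, with a 95% interval from -0.27 to 0.25. Ddx28, of the mitochondrial large subunit, was below background and differed by 0.05, with an interval from -0.29 to 0.39. Of the 3 innate sensors of foreign RNA, Ddx58, known as RIG-I, was below background and differed by 0.06, with an interval from -0.31 to 0.42. Dhx58 (LGP2), at 12.6 to 15.8, and Ddx60 were not tested.

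Of the 18 helicase genes with more than one tested probe set, 11 had probe sets on both sides of 0 in this comparison. The same count over all genes with several tested probe sets is not given here. Over all 71 tested probe sets of helicase genes, 2 were higher (the representing one of Ddx10 and the second one of Dhx36) and 1 lower (the dim one of Ddx5) by limma. Of all tested probe sets 6.74% were called higher and 0.274% lower. The widest gaps between probe sets of one gene were those of Ddx10 (1.08 log2 units), Dhx9 (1.05) and Ddx5 (0.83), and the narrowest were those of Ddx31 (0.12), Dhx32 (0.14) and Dhx15 (0.15). A call for a gene with a wide gap rests on the choice of probe set. For 11 of the 38 tested genes the representing probe set has a suffix (x or s) that marks possible hybridisation to similar transcripts.

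**Figure D4:**
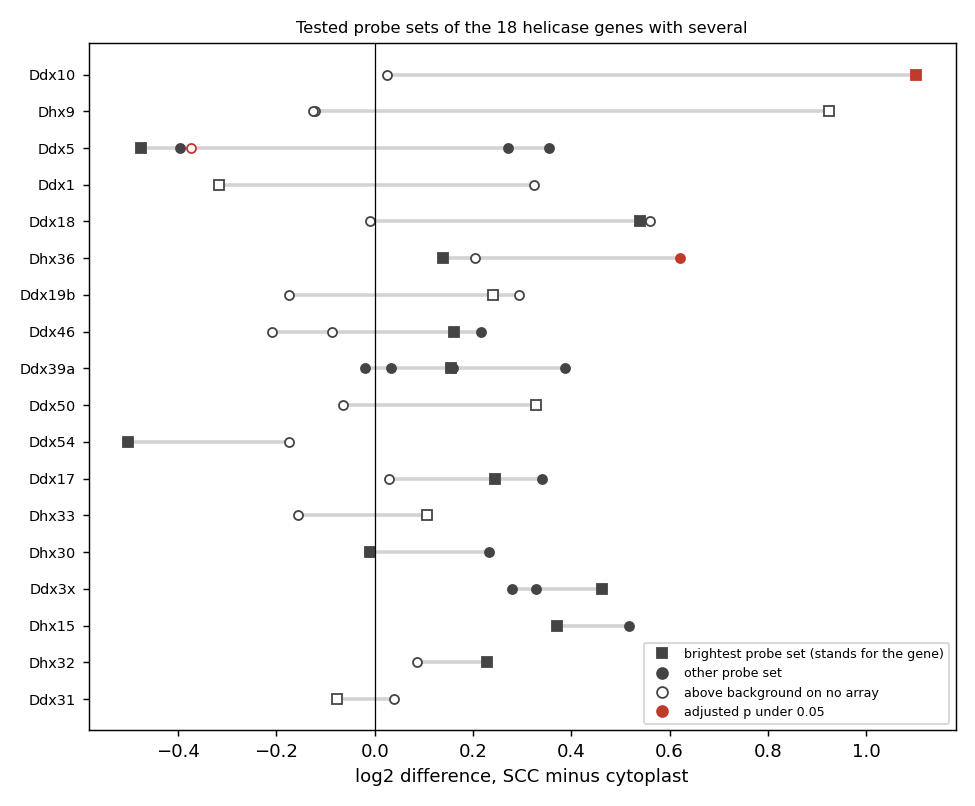
Log2 difference of the SCC minus the cytoplast for every tested probe set of the 18 helicase genes that have several; squares represent the gene, circles are its other probe sets, open symbols were above background on no array, and red marks a limma adjusted p under 0.05. The probe sets of 11 genes fall on both sides of 0, with the widest gap for Ddx10 (1.08).

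Against the intact MII oocyte, 0 of the 38 helicase genes passed in the SCC by limma, where 0.0421% of all probe sets did, all of them higher. Limma with an intensity trend called 0 as well, against 0.0337% of all probe sets, and at an unadjusted p under 0.05 there were 1 higher (2.63%, against 8.59% of all probe sets) and 5 lower (13.2%, against 3.51%), together 15.8% against 12.1%. The median log2 difference was 0.02, and -0.0013 over all probe sets tested, and 21 of the 38 genes lay above 0 (55.3%, against 49.8% of all probe sets). This comparison shares its SCC arrays with the one above. No gene was higher on all SCC arrays, where 8.71% of all probe sets were. For 3 genes (Dhx16, Ddx5 and Dhx40) all SCC arrays were lower, a pattern seen in 5.34% of all probe sets.

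Dhx40 in the MII oocyte read 227, 252 and 194, above every SCC array, and the log2 difference was -0.74 (SE 0.26, limma adjusted p = 0.262). Dhx16 read 97.3, 63.7 and 64.6, also above every SCC array, with -0.70 (SE 0.20, adjusted p = 0.181). Ddx5 read 2057, 1092 and 1301, with -0.64 (SE 0.21, adjusted p = 0.234). None of the 3 passed the limma test in either comparison, the SCC arrays of Dhx16 and Dhx40 overlapped those of the cytoplast, and of the other bright Ddx5 probe sets 1 was at -0.65 against the MII oocyte, 1 at -0.05 and 1 at 0.08. Ddx5 and Ddx54 passed in a fit without MII oocyte 3. Ddx10 read 71.2, 162 and 122 in the MII oocyte and so ran from the cytoplast range into the SCC range, with a log2 difference of 0.65 (SE 0.27, limma adjusted p = 0.354).

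Between the cytoplast and the intact MII oocyte, no helicase gene passed by limma, and 0% of all probe sets did. Limma with an intensity trend called 0, and at an unadjusted p under 0.05 there were 0 helicase genes, where 1.16% of all probe sets were higher and 3.28% lower, together 4.44%. The median log2 difference was -0.05, as over all probe sets tested (-0.05), with 11 of the 38 genes above 0 (28.9%, against 39% of all probe sets), and the cytoplast arrays are those of the first comparison. No gene was higher on all cytoplast arrays (1.89% of all probe sets). Ddx3x was lower on all of them (3.83% of all probe sets), since it read 4846, 5007 and 5245 in the MII oocyte, a log2 difference of -0.19 (SE 0.13, limma adjusted p = 0.926). The smallest p values belonged to Ddx59, at 378, 260 and 400 in the MII oocyte and a difference of -0.35 (adjusted p = 0.926), and to Ddx10, at -0.45 (adjusted p = 0.926). Ddx1 read 59.5, 40.3 and 26.6 in the MII oocyte, below background and overlapping the cytoplast, a difference of -0.47 (SE 0.32, limma adjusted p = 0.926), and -0.79 between SCC and MII oocyte (adjusted p = 0.393). For 35 of the 38 genes the 95% interval lay within 2-fold either way (92.1%, against 97% of all probe sets). These arrays thus bound most helicase differences between cytoplast and whole oocyte without showing that there are none.

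Part of the spread within groups ran with the brightness of the controls spiked in at hybridisation. Their mean log2 level was 11.11 to 11.32 on 4 brighter arrays (SCC 3, cytoplast 4, MII oocyte 2 and 4) and 9.87 to 10.68 on the other 6. With this level in the limma fit, its coefficient had an adjusted p under 0.05 for 5 of the 38 helicase genes (13.2%), all rising, against 9.91% of all probe sets. Most of those rose as well (2000 of 2353). The rise per log2 unit of control level was 0.961 for Ddx18 (adjusted p = 0.00681), 0.694 for Ddx39b (0.0208), 0.423 for Ddx54 (0.0318), 0.365 for Ddx59 (0.0173) and 0.334 for Dhx32 (0.0461). Ddx39b was below background on all arrays. Other tested probe sets of these genes did not pass by limma. They were at 0.301 and 0.102 for Ddx18 (adjusted p = 0.321 and 0.492), -0.025 for Ddx54 (0.874) and 0.119 for Dhx32 (0.388). The coefficient of Ddx10 was -0.21 (limma adjusted p = 0.466). Within the brighter arrays (1 SCC, 1 cytoplast) Ddx10 was 1.68 log2 units higher in the SCC and within the dimmer ones (2 and 3 arrays) 0.86. Ddx3x was 0.69 higher within the brighter and 0.35 within the dimmer arrays, and Dhx9 was 1.72 and 0.61 higher.

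**Figure D5:**
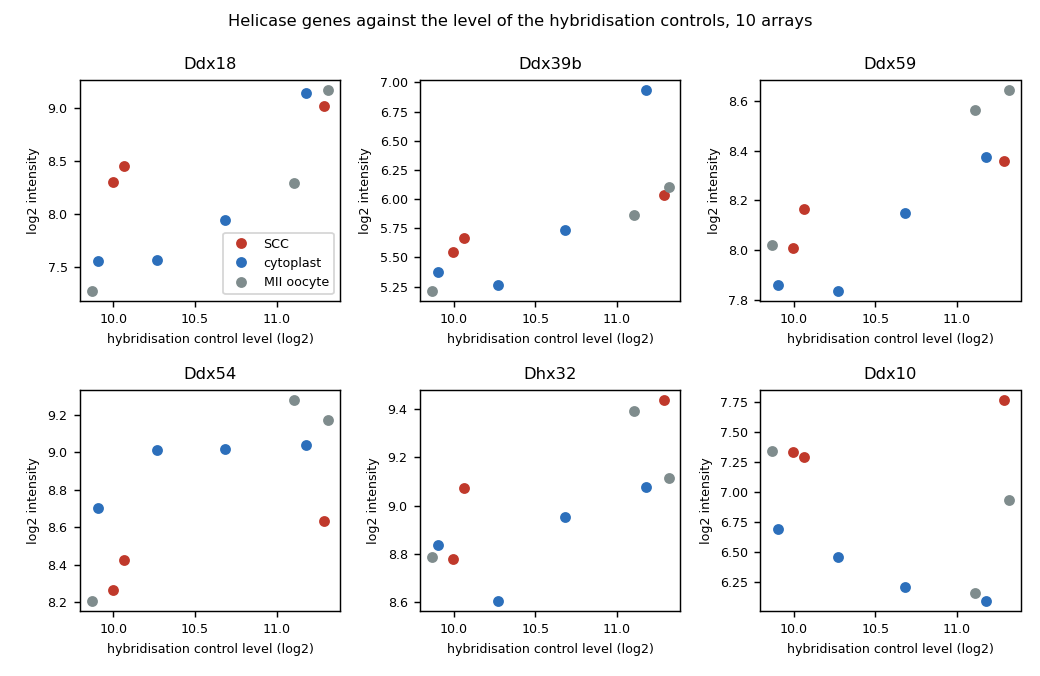
Log2 intensity of the 5 helicase genes whose level ran with the hybridisation controls, and of Ddx10, on each of the 10 arrays (y axis) against the mean log2 level of those controls (x axis), coloured by group. Ddx18 rises by 0.961 per log2 unit in the fit, and in Ddx10 the SCC arrays stand above the cytoplast arrays at both ends of the x axis.

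Of the DEAD box genes that carry other symbols, 3 were looked up and 2 tested against the cytoplast, and neither passed by limma. Eif4a1, the main helicase of cap-dependent initiation, differed by 0.25 (adjusted p = 0.493). Eif4a2, its close paralog, read 185, 179 and 214 in the SCC, 108, 110, 147 and 59.9 in the cytoplast and 94.7, 176 and 125 in the MII oocyte. Its SCC arrays were above all cytoplast and MII oocyte arrays, with a log2 difference from the cytoplast of 0.92 (SE 0.27, limma adjusted p = 0.0696). Eif4a3, the helicase of the exon junction complex, was dim (11.6 to 17.5) and was not tested. Of 15 tested RNA helicases of other families, 0 passed in any of the 3 comparisons by limma, with or without an intensity trend, where 7.01%, 0.0421% and 0% of all probe sets did. At an unadjusted p under 0.05 there were 3 between SCC and cytoplast, 0 between SCC and MII oocyte and 1 between cytoplast and MII oocyte. Of all probe sets 20.2%, 12.1% and 4.44% had such a p. The median difference of the 15 genes between SCC and cytoplast was 0.12.

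Of 32 tested partners and activators of these helicases, 3 passed by limma between SCC and cytoplast, all higher in the SCC, with a median of 0.03. This is 9.38%, near the 7.01% of all probe sets called in either direction. Cwc22, which brings Eif4a3 to the spliceosome, read 306, 403 and 458 in the SCC and 167, 169, 218 and 150 in the cytoplast. The groups were well apart, 2.21-fold (log2 difference 1.14, SE 0.18, limma adjusted p = 0.00701). Thoc3, a subunit of the THO complex that works with Ddx39b in export, read 432, 491 and 410 in the SCC and 244, 285, 313 and 241 in the cytoplast. Again no array overlapped, and the ratio was 1.65-fold (log2 difference 0.72, SE 0.15, limma adjusted p = 0.0164). Rbm8a, an exon junction protein that sits with Eif4a3, was below background and differed by 0.72 (limma adjusted p = 0.0311). None of the 32 passed against the MII oocyte, where Cwc22 differed by 0.82 (limma adjusted p = 0.14) and Thoc3 by 0.85 (0.0733).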

How the data were processed

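RNA of 10 samples was measured on 1-colour Affymetrix arrays, per the labels. Linear intensity values of 45101 probe sets make up the deposited table. The authors made them with RMA, per the submitters' processing notes, in a version not given in the sources used here; scanner files were not used here. Samples were grouped by title.

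The planned tests assumed log2 values, so log2 of the deposited intensities was taken first. Probe sets above the array median on at least 3 arrays were kept (23737), without 64 controls. A limma model (version 3.58.1, R 4.3.3) gave each of the groups 1 mean, with eBayes at its defaults; p-values were adjusted by Benjamini-Hochberg over all kept probe sets and read at 0.05, and the script was first tested on simulated data. Intervals are 95% intervals from the same fit. The number of arrays limits the precision.

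By the platform annotation, 34945 probe sets had 1 gene, 932 several and 9160 none. By gene ID, 34741 of those with 1 gene, and all 49 helicase genes, matched the RefSeq table of GRCm38.p6, used for names only. The helicase genes had 108 such probe sets, of which 71 were kept. Background was the 95th percentile, per array, of probe sets for 43 genes of other tissues. Where a whole group was below it, a fold is a bound against the higher of the background level and the signal on each array, and where both groups were below it the fold is left out.

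Values are given for genes that passed, the 12 smallest p-values between SCC and cytoplast, the 4 smallest in each other comparison and genes set by name. Other members, and probe sets that do not represent a gene, are named to account for all members and were picked with their values known. The members and lists were chosen with earlier results of these data known. Role lists were revised from background knowledge after the files were open. Alternatives covered scaling, filters, arrays in the fit, moderation, a replicate block, array quality covariates, the value per gene and each array left out.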

Additional observations from a re-analysis of the deposited data

Results flagged for a closer look

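In 3 of 38 helicase genes tested, 1 of the 4 cytoplast arrays lay far from the other 3 by Dixon's criterion. Chance alone sets apart about 1 in 20 groups. The share of all tested probe sets with such a cytoplast array is not given here. The count of helicase genes therefore cannot be set against it. Ddx50 was lowest on cytoplast 2, at an intensity of 69.11, with the nearest other array at 84.2. Ddx54 was lowest on cytoplast 3, at 417.14, with the nearest at 516.7. Dhx33, which acts in ribosomal RNA synthesis, was highest on cytoplast 4, at 42.33, with the nearest at 34.3, and all its arrays were below background. The arrays that stood apart differed between the 3 genes. The SCC and MII oocyte groups, with 3 arrays each, were too small for this criterion.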

How the results depend on the processing

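The number of helicase genes called between SCC and cytoplast was 1 (Ddx10) and ran from 0 to 4 over the alternatives. It was 0 with the beta-actin covariate and with the mean of all kept probe sets of a gene. It was 2 after quantile normalization (Ddx5 and Ddx54, both lower, and not Ddx10) and 2 with only probe sets above the 75th percentile (Ddx10 and Ddx3x). Cyclic loess also called 1, but this was Ddx5, lower. It was 3 in a fit of these 2 groups alone (Ddx10 and Dhx9 higher, Ddx54 lower) and 4 with the hybridisation control level as a covariate or with its cut as a block (Ddx10, Ddx3x and Dhx9 higher, Dhx16 lower). The cut was chosen after seeing the data. Over all probe sets, 503 were higher and 120 lower after cyclic loess, and 419 and 153 after quantile normalization, against 1599 and 65. In either direction this is 2.62% and 2.41% of all probe sets, against 7.01%. For the covariate, block, filter, probe set mean, 2-group and left-out fits that share is not given here. A count of helicase genes in those fits therefore cannot be set against all probe sets.

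Equal replicate numbers were not shown to pair the samples: residuals of same-numbered arrays correlated at 0.0215 on average over 8 pairs, from -0.304 to 0.614. With the replicate block the count was 3 (Ddx10 higher, Dhx29 and Dhx40 lower) and Ddx39b turned to 0.18. Other changes of sign between SCC and cytoplast, all in genes that were not called, were Ddx1 (0.01 with the beta-actin covariate, 0.0043 with the mean of probe sets), Ddx17 (-0.050 and -0.076 after cyclic loess and quantile normalization), Ddx59 (-0.10 and -0.15) and Dhx36 (-0.043 and -0.10). With 1 array left out, Dhx36 ran from -0.092 (without SCC 3) to 0.31 (without SCC 1) and Ddx39b from -0.27 (without cytoplast 2) to 0.29 (without cytoplast 4), with 0.02 without SCC 1.

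With 1 array left out, the count was between 0 and 3: 0 without SCC 2, SCC 3, cytoplast 1 or cytoplast 2, 2 without SCC 1 or cytoplast 4, and 3 without MII oocyte 3. Against the MII oocyte it was between 0 and 2 for the SCC, with 2 (Ddx5 and Ddx54, lower) without MII oocyte 3, and 0 for the cytoplast in all alternatives. The median log2 difference between SCC and cytoplast was -0.032 after cyclic loess and -0.074 after quantile normalization. For all probe sets these medians were -0.0047 and -0.025. Above the 75th percentile the helicase median was 0.14. With 1 array left out it was 0.02 to 0.11. For SCC against MII oocyte it was -0.041 (without SCC 3) to 0.090 (without SCC 1), and for cytoplast against MII oocyte -0.12 above the 75th percentile. The cause of these changes was not tested. Signal near background limits 22 of the 38 tested genes.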
